A study of Mus musculus with 16 samples.

Results

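The 10 genes described here, of the myostatin, activin and IGF pathways, were followed through the *gastrocnemius* transcriptome of HSALR mice, a model of myotonic dystrophy type I. The genes were taken by name from the counts table, where all 10 were present among 24454 genes and all 10 were among the 15487 that passed the filter on low counts. They were the ligands *Mstn* and *Gdf11*, the inhibitor *Fst*, the type II receptors *Acvr2a* and *Acvr2b*, the IGF ligands *Igf1* and *Igf2*, the receptor *Igf1r*, and the IGF binding proteins *Igfbp5* and *Igfbp4*. HSALR mice (line LR20b, homozygous) carry expanded CTG repeats in a human skeletal actin transgene that is expressed in skeletal muscle, so the line models the disease in muscle only. Controls were FVB/N mice. Poly(A) RNA of 16 mice aged 3 months was sequenced, from 3 vehicle-treated and 3 AICAR-treated control mice and 5 vehicle-treated and 5 AICAR-treated HSALR mice. AICAR, an activator of the energy sensor AMPK, was given at 500 mg/kg for 7 days, and the vehicle was not named. Mice are named here by the IDs in the labels.

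Myostatin, GDF11 and the activins are secreted ligands of the TGF-beta family. They bind the type II receptors ACVR2A and ACVR2B, which recruit type I receptors that phosphorylate SMAD2 and SMAD3, and follistatin traps the ligands outside the cell. In skeletal muscle this branch restrains fibre size, and loss of myostatin gives muscle overgrowth. IGF1 and IGF2 act through IGF1R on the PI3K and AKT cascade and promote growth, while the IGF binding proteins hold the ligands in the extracellular space and either restrain or prolong their action.

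Total counts per library lay between 64890014 and 81987726. Replicates of each group differed from one another by far more than sampling noise in all 26 within-group pairs (chi-square per degree of freedom 25.1 to 141). The summed level of 7 fibre markers such as *Ckm* and *Acta1* was 106911 to 159016 normalized CPM (counts scaled to the TMM-adjusted library total), and none of these was at 0 in any group, as the muscle label states. *Krt14*, a keratin of the epidermis, exceeded 1 normalized CPM in 6 libraries, namely 4 of 5 from vehicle-treated HSALR mice, 1 of 3 from vehicle-treated and 1 of 3 from AICAR-treated control mice, and none of 5 from AICAR-treated HSALR mice. The distribution is uneven in every comparison except AICAR against vehicle in control muscle, where each group holds 1 of 3. Leaving out these 6 libraries leaves 1 vehicle-treated HSALR mouse, which is then assumed to vary like the other groups.

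The 250 bases before the annotated start of 3 genes are shown because *Igfbp5* and *Acvr2a* had the largest genotype differences among the members after both treatments, and *Mstn* is the ligand made mainly in muscle that passed the test in no comparison. Sequences are from RefSeq (GRCm38.p6, the assembly of mm10), on the strand of the gene. Capitals mark E-boxes (CANNTG), the sequence class bound by basic helix-loop-helix factors such as MYOD. The pattern is its own reverse complement, so a site matches on both strands, although its middle bases can differ between them.
Igfbp5, chr1:72874866-72875115, minus strand: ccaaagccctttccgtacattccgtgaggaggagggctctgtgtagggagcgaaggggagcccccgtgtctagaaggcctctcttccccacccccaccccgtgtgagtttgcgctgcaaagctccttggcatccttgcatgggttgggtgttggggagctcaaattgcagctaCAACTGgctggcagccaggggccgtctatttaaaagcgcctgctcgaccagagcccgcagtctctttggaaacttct
Acvr2a, chr2:48813859-48814108, plus strand: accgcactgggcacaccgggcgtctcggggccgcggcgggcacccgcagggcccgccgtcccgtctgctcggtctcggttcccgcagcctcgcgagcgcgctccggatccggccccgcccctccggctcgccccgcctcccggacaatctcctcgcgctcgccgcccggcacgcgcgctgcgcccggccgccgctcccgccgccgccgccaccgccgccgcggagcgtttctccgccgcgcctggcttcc
Mstn, chr1:53061390-53061639, plus strand: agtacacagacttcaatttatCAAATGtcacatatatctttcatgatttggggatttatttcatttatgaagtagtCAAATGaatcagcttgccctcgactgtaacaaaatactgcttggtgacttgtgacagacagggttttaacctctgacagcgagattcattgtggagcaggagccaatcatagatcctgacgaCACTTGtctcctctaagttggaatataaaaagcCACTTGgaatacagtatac
The windows held 1 E-box for *Igfbp5*, 0 for *Acvr2a* and 4 for *Mstn*, while 66.2% of 32851 annotated mouse windows of the same length held at least 1. GC content was 58.8% for *Igfbp5*, 82.0% for *Acvr2a* and 38.4% for *Mstn*, against a median of 52.4% over all windows. The *Mstn* window also held 1 TATAAA, a match present on either strand in 12.4% of windows, and the other 2 windows held none. *Mstn* lies on chromosome 1 (53061640 to 53068079) and *Igfbp5* on the same chromosome (72858065 to 72874865). *Acvr2a* lies on chromosome 2 (48814109 to 48903264), where its interval overlaps *Orc4*.

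*Igfbp5*, which encodes a binding protein abundant in muscle, was the highest of the 10 genes and fell in all 4 comparisons. Its normalized CPM were 1186, 1058 and 1259 in vehicle-treated control mice and 666, 604 and 672 in AICAR-treated control mice. In HSALR mice they were 386, 290, 534, 526 and 398 after vehicle and 206, 283, 257, 241 and 276 after AICAR. The ranges of the 4 groups were stacked without overlap in this order, from 1168 ± 102 (SD, n = 3) and 647 ± 37.9 (SD, n = 3) in control mice to 427 ± 103 (SD, n = 5) and 252 ± 30.9 (SD, n = 5) in HSALR mice. The HSALR level was thus 2.74-fold lower after vehicle (log2 fold change -1.45, SE 0.16, adjusted p = 9.54e-06, by the edgeR quasi-likelihood test, adjusted after Benjamini and Hochberg over 15487 genes, as throughout unless another test is named). After AICAR it was 2.56-fold lower (log2 fold change -1.36, SE 0.16, adjusted p = 3.26e-05). AICAR lowered *Igfbp5* 1.69-fold in HSALR muscle (log2 fold change -0.76, SE 0.14, adjusted p = 0.00109) and 1.80-fold in control muscle (log2 fold change -0.85, SE 0.18, adjusted p = 0.00618). The difference between these 2 AICAR effects was 0.09 on the log2 scale (95% confidence interval -0.39 to 0.57, adjusted p = 0.883). All 4 calls were kept under each of the 26 alternatives run for each comparison, with the largest adjusted p at 0.0392.

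*Igfbp4*, which encodes a binding protein that restrains IGF action, stayed within a narrow range. Its group means were 72.3 ± 11.3 and 69.1 ± 7.13 normalized CPM (SD, n = 3 each) in vehicle- and AICAR-treated control mice, and 71.4 ± 7.92 and 66.8 ± 8.07 (SD, n = 5 each) in the corresponding HSALR mice. No comparison passed the test, and the 95% confidence interval of the genotype difference after vehicle was -0.27 to 0.23 on the log2 scale. The interval after AICAR was -0.30 to 0.20.

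Among the binding proteins *Igfbp1* to *Igfbp7*, the proportions differed between the groups. Levels per length are given as normalized RPKM (CPM divided by the deposited gene length in kilobases). The summed level was 338 ± 8.02 in vehicle-treated control mice and 250 ± 14.3 in AICAR-treated control mice (SD, n = 3 each). It was 214 ± 37.0 and 173 ± 10.8 in vehicle- and AICAR-treated HSALR mice (SD, n = 5 each). *Igfbp5* made up 59.1% ± 5.20 (SD, n = 3) of the sum in vehicle-treated control muscle and 25.0% ± 2.56 (SD, n = 5) in AICAR-treated HSALR muscle, with 44.2% ± 3.84 (SD, n = 3) and 33.9% ± 3.79 (SD, n = 5) between them in AICAR-treated control and vehicle-treated HSALR muscle. The share ran from 53.1% to 62.5% in the first of these groups and from 20.6% to 27.2% in the last. *Igfbp5* itself was at 199 normalized RPKM in vehicle-treated control and at 72.9 in vehicle-treated HSALR muscle. The sum, the share and the ratio below thus largely restate its fall. The log2 ratio of *Igfbp5* to *Igfbp4* counts was 1.47 lower in HSALR than in control mice after vehicle (2.55 against 4.02) and 1.31 lower after AICAR (1.92 against 3.23). An exact two-sided permutation test gave p = 0.0179 for both, the smallest p that 5 against 3 mice allow. The AICAR difference in this ratio was -0.63 in HSALR muscle (exact permutation p = 0.00794, again the smallest possible) and -0.79 in control muscle (exact permutation p = 0.1, the smallest that 3 against 3 allow). After Benjamini-Hochberg adjustment over the 16 ratio tests that were run, none passed 0.05 (lowest adjusted p = 0.0952).

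**Figure D1:**
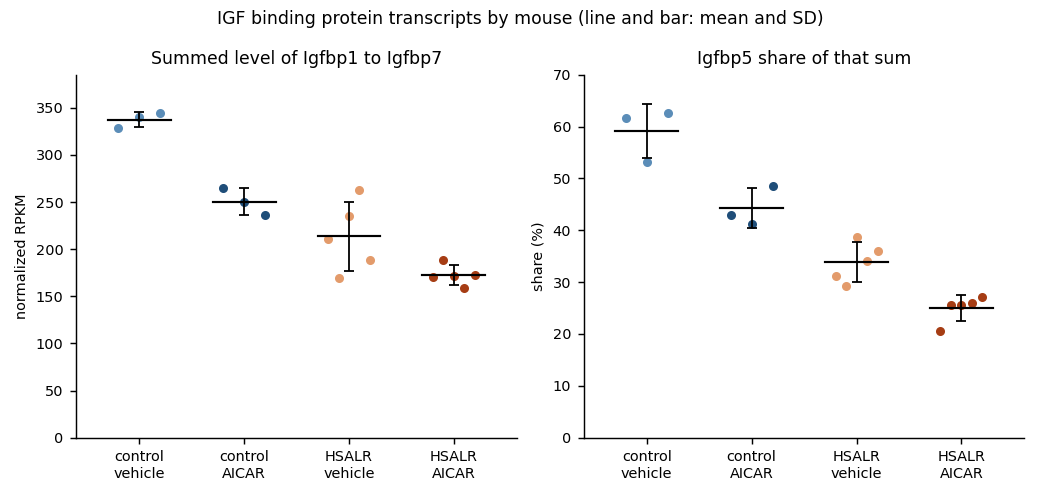
Left, summed normalized RPKM of Igfbp1 to Igfbp7 in each mouse; right, the Igfbp5 share of that sum in percent, with 1 point per mouse, the mean as a line and the SD as a bar. The share stepped down from 59.1% in vehicle-treated control muscle to 25.0% in AICAR-treated HSALR muscle, without overlap between groups.

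Both type II receptors were lower in vehicle-treated HSALR muscle, and *Acvr2b* was also lower after AICAR in control muscle. *Acvr2a*, the receptor for activin and myostatin, was at 63.7, 55.0 and 70.5 normalized CPM in vehicle-treated and 57.6, 43.2 and 50.5 in AICAR-treated control mice. It was at 30.1, 29.6, 28.8, 22.4 and 27.4 in vehicle-treated HSALR mice, and at 25.6, 23.0, 25.9, 26.8 and 29.9 after AICAR. All 10 HSALR mice were below all 6 control mice. The HSALR level was 2.28-fold lower after vehicle (log2 fold change -1.19, SE 0.11, adjusted p = 2.71e-06) and 1.92-fold lower after AICAR (log2 fold change -0.94, SE 0.11, adjusted p = 4.14e-05). Both calls were kept under each of the 26 alternatives run for each. AICAR gave a log2 fold change of -0.08 in HSALR muscle (95% confidence interval -0.29 to 0.13, adjusted p = 0.613) and of -0.32 in control muscle (-0.59 to -0.05, adjusted p = 0.104).

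*Acvr2b*, the second receptor and the one with the higher affinity for myostatin, was at 50.6, 46.1 and 47.0 normalized CPM in vehicle-treated control mice, above every other library. AICAR-treated control mice were at 25.4, 25.3 and 25.9. Vehicle-treated HSALR mice were spread between 21.2 and 38.3 (mean 29.0 ± 6.65, SD, n = 5), and AICAR-treated HSALR mice between 16.8 and 32.1 (mean 23.9 ± 5.86, SD, n = 5). The HSALR level was 1.65-fold lower after vehicle (log2 fold change -0.73, SE 0.18, adjusted p = 0.00815). AICAR lowered *Acvr2b* 1.87-fold in control muscle (log2 fold change -0.91, SE 0.21, adjusted p = 0.0102). In HSALR muscle the log2 fold change with AICAR was -0.28 (95% confidence interval -0.62 to 0.06, adjusted p = 0.225), and between AICAR-treated genotypes it was -0.10 (-0.49 to 0.30, adjusted p = 0.741). The difference between the AICAR effects of the genotypes was 0.63 on the log2 scale, with an unadjusted p = 0.0298 and an adjusted p = 0.277 in edgeR's quasi-likelihood test, so the 2 effects were not shown to differ. Without the 6 libraries with *Krt14*, both *Acvr2b* calls were lost, with log2 fold changes of -0.62 (adjusted p = 0.289) and -0.92 (adjusted p = 0.0610). With *Tbp* scaling the genotype value was -0.44 (adjusted p = 0.103).

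*Fst*, which encodes the ligand trap follistatin, was lower after AICAR. It was at 11.7, 10.2, 11.8, 12.5 and 11.2 normalized CPM in vehicle-treated HSALR mice and at 4.96, 6.07, 9.77, 5.39 and 4.89 after AICAR. The ranges did not overlap, although AICAR-treated mouse S460 (9.77) came close to the vehicle group. AICAR lowered *Fst* 1.85-fold (log2 fold change -0.89, SE 0.19, adjusted p = 0.00318). Without S460 the log2 fold change was -1.11 (adjusted p = 0.000134), and without the 6 libraries with *Krt14*, which leaves 1 vehicle-treated HSALR mouse, it was -0.92 (adjusted p = 0.182). In control mice *Fst* was at 10.3, 10.5 and 10.2 normalized CPM after vehicle and at 8.65, 6.69 and 4.24 after AICAR, again without overlap. This difference did not pass the test (log2 fold change -0.66, SE 0.24, adjusted p = 0.0846), while DESeq2 gave an adjusted p = 0.0428 and limma with voom an adjusted p = 0.0445. It also passed without control mouse S447 (-0.92, adjusted p = 0.0331) or HSALR mouse S460 (-0.66, adjusted p = 0.0231). In 22 of 26 alternatives the difference stayed uncalled. Leaving out single mice weakened it to as little as -0.43, with adjusted p up to 0.292. Genotype did not change *Fst* detectably, with log2 fold changes of 0.15 after vehicle (95% confidence interval -0.31 to 0.61) and -0.07 after AICAR (-0.54 to 0.40). The *Fst* interval overlaps the gene model *Gm41074*.

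*Mstn*, the muscle-derived inhibitor of growth, passed the test in no comparison. It was at 68.7, 82.3 and 87.4 normalized CPM in vehicle-treated control mice and at 61.3, 52.2 and 73.5 after AICAR. HSALR mice were at 51.7, 73.4, 77.7, 41.4 and 54.8 after vehicle and at 72.5, 58.5, 40.6, 54.4 and 58.1 after AICAR, so that the groups overlapped in all 4 comparisons. The genotype difference after vehicle was -0.41 on the log2 scale (95% confidence interval -0.83 to 0.01, adjusted p = 0.139), and AICAR gave -0.07 in HSALR (-0.44 to 0.29) and -0.35 in control muscle (-0.82 to 0.12). The ratio of *Mstn* to *Fst* counts was 7.68 ± 0.94 in vehicle-treated and 10.7 ± 5.73 in AICAR-treated control mice (SD, n = 3 each). It was 5.28 ± 1.58 and 10.1 ± 3.84 in vehicle- and AICAR-treated HSALR mice (SD, n = 5 each), and the difference in HSALR mice gave an exact permutation p = 0.0556 (adjusted p = 0.190 over the 16 ratio tests).

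*Gdf11*, the close relative of *Mstn*, was the least counted member, with 126 to 667 reads per library. Group means were 3.99 ± 0.82 and 3.46 ± 1.08 normalized CPM in vehicle- and AICAR-treated control mice (SD, n = 3 each) and 4.76 ± 2.54 and 2.88 ± 0.76 in HSALR mice (SD, n = 5 each). No comparison passed in the main fit (edgeR with TMM scaling, all 16 libraries and no covariate). The AICAR value in HSALR muscle was -0.72 on the log2 scale (95% confidence interval -1.34 to -0.11, adjusted p = 0.0775). It passed the test with DESeq2 (adjusted p = 0.0415), library size scaling (-0.81, adjusted p = 0.0494), *Tbp* scaling (-0.85, adjusted p = 0.0447) and the epidermal covariate (-1.22, adjusted p = 0.00648). Vehicle-treated HSALR mouse S451 (9.28) lay above all others, and without it the value was -0.33 (adjusted p = 0.284). Without the 6 libraries with *Krt14*, S451 is the only vehicle-treated HSALR mouse left, and the value was then -1.69 (adjusted p = 0.0179).

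Both IGF ligands were moderately lower in HSALR muscle after vehicle, and only *Igf2* was called lower after AICAR. These calls were weaker than those above. *Igf1*, the growth hormone-responsive ligand, was at 36.7, 40.6 and 34.8 normalized CPM in vehicle-treated control mice and at 27.8, 22.7, 34.4, 30.3 and 25.6 in vehicle-treated HSALR mice. These ranges did not overlap, but the highest HSALR and the lowest control mouse were close. The log2 fold change was -0.41 (SE 0.14, adjusted p = 0.0459). After AICAR *Igf1* was at 33.1, 34.5 and 26.1 in control and at 23.3, 35.4, 26.3, 23.8 and 27.7 in HSALR mice, with a log2 fold change of -0.20 (95% confidence interval -0.50 to 0.11, adjusted p = 0.354). AICAR changed *Igf1* in neither genotype at the threshold (log2 fold changes -0.04 and -0.26 in HSALR and control muscle). The *Igf1* call after vehicle was lost on leaving out any 1 of 10 of the 16 mice (S445, S446, S447, S450, S451, S452, S458, S459, S460 and S463), with adjusted p up to 0.158. It was also lost without the 6 libraries with *Krt14* (-0.48, adjusted p = 0.303), with *Tbp* scaling (-0.15, adjusted p = 0.422), with library size scaling (-0.39, adjusted p = 0.0941), with no filter on low counts (-0.41, adjusted p = 0.0520) and with the epidermal score as a covariate (-0.44, adjusted p = 0.0507). The interval of *Igf1* overlaps the antisense gene *Igf1os*.

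*Igf2*, the imprinted fetal ligand, was at 21.6, 23.0 and 24.6 normalized CPM in vehicle-treated control mice and at 22.4, 17.5, 19.3, 19.03 and 18.6 in vehicle-treated HSALR mice, where S451 (22.4) overlapped the controls. The log2 fold change was -0.25 (SE 0.09, adjusted p = 0.0393). The value was 0.0003 without the 6 libraries with *Krt14*, where S451 is the only vehicle-treated HSALR mouse, and 0.02 with scaling to *Tbp*. With all libraries kept, the call was also lost with library size scaling (adjusted p = 0.0925), no filter on low counts (0.0516), only the groups compared (0.0592) and the epidermal covariate (0.0817). It was lost too on leaving out any 1 of 6 mice (S446, S450, S452, S453, S458 and S459), with adjusted p up to 0.154. After AICAR *Igf2* was at 24.0, 18.7 and 21.2 in control and at 16.9, 16.8, 16.9, 15.6 and 17.7 in HSALR mice, without overlap. The log2 fold change was -0.34 (SE 0.09, adjusted p = 0.0104), which was lost without control mouse S447 (-0.25, adjusted p = 0.0773) and with *Tbp* scaling (-0.39, adjusted p = 0.0532). AICAR in HSALR muscle gave -0.21 (SE 0.07, adjusted p = 0.0527), and in control muscle -0.12 (adjusted p = 0.465). The value in HSALR muscle passed the test in 10 of 26 alternatives: DESeq2 (adjusted p = 0.0422), library size scaling (-0.29, adjusted p = 0.0222), *Tbp* scaling (-0.32, adjusted p = 0.0453), a minimum of 10 counts in every library, only the groups compared, the epidermal covariate (-0.29, adjusted p = 0.0402), without the *Krt14* libraries (-0.42, adjusted p = 0.0397), and without S452, S447 or S448. Without S451 it was -0.15 (adjusted p = 0.136). The *Igf2* interval overlaps *Mir483* and *Igf2os*.

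*Igf1r*, the receptor for both ligands, passed the test in no comparison. Its normalized CPM lay between 14.2 and 23.3 over all 16 mice. AICAR-treated control mice (14.2 to 19.8) were below vehicle-treated control mice (21.5 to 23.3), with a log2 fold change of -0.38 (95% confidence interval -0.68 to -0.07, adjusted p = 0.0924). In HSALR muscle the AICAR value was -0.06 (-0.29 to 0.18). The genotype values were -0.19 after vehicle (-0.46 to 0.08) and 0.13 after AICAR (-0.14 to 0.41). The *Igf1r* interval overlaps *Gm51488* and *Gm51487*.

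**Figure D2:**
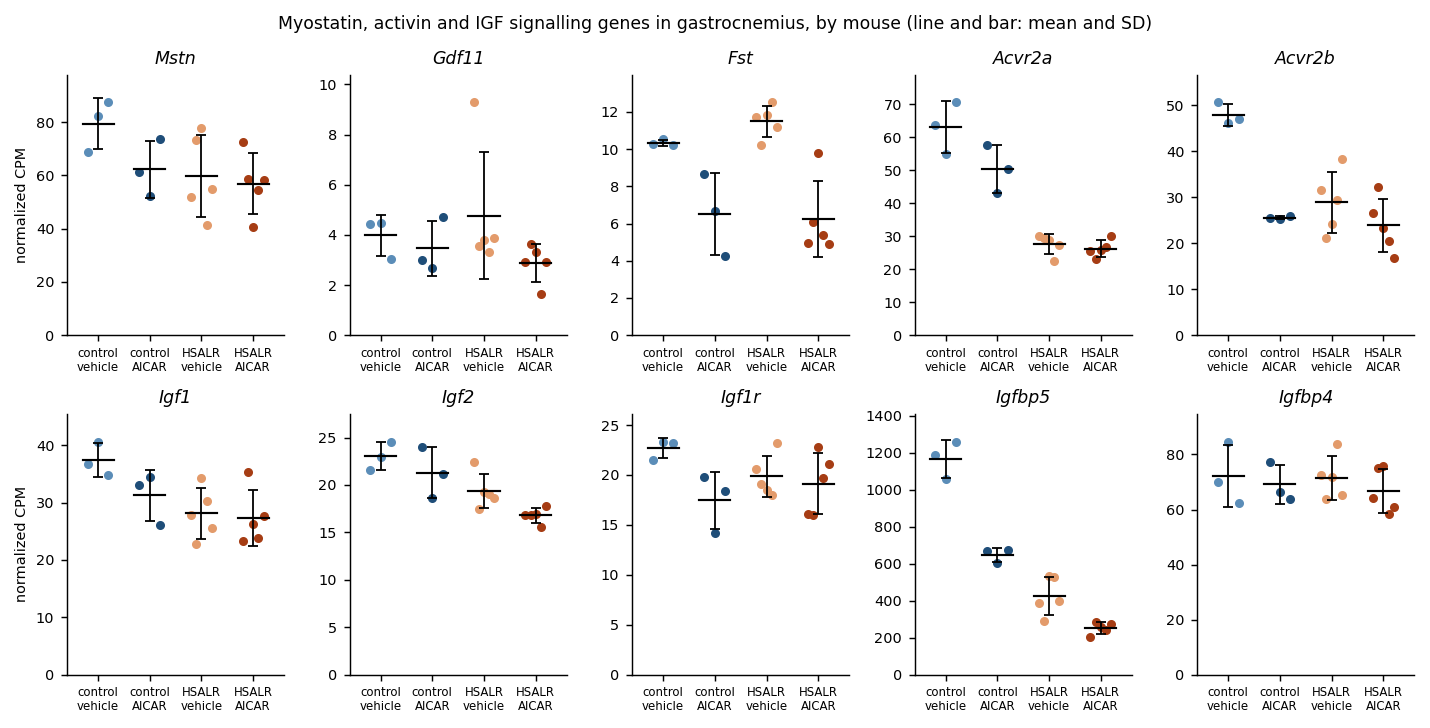
Normalized CPM of each of the 10 genes in each of 16 mice, by genotype and treatment, with 1 point per mouse, the mean as a line and the SD as a bar; each panel has its own axis from 0. Igfbp5 steps down over the 4 groups, Acvr2a separates HSALR from control mice, and Igfbp4 lies at 58.3 to 84.6 in all mice.

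Counted together, 5 of 10 genes were lower in HSALR than in control muscle after vehicle (*Acvr2a*, *Acvr2b*, *Igf1*, *Igf2* and *Igfbp5*) and 0 were higher. Over all 15487 genes tested, 26.9% passed the same threshold, 15.4% higher and 11.5% lower, and the median log2 fold change was -0.33 over the members against 0.01 over all genes. After AICAR 3 members were lower in HSALR muscle (*Acvr2a*, *Igf2* and *Igfbp5*), against 21.8% of all genes, 12.2% higher and 9.64% lower. AICAR lowered 2 in HSALR muscle (*Fst* and *Igfbp5*), against 26.6% of all genes, 13.7% higher and 13% lower. It lowered 2 in control muscle (*Acvr2b* and *Igfbp5*), against 13.2% of all genes, 8.4% higher and 4.77% lower. For the difference between the AICAR effects of the genotypes, 0 of 10 passed, 1 (*Acvr2b*) had an unadjusted p under 0.05, and DESeq2 and limma also called 0, against 0.691% of all genes, 0.207% higher and 0.484% lower. The comparisons share groups of mice, so these counts are not independent. The 10 genes were chosen with earlier results of these data known, so the shares over all genes are no independent reference. The count of 5 after vehicle was 2 with *Tbp* scaling and 3 to 5 on leaving out single mice.

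**Figure D3:**
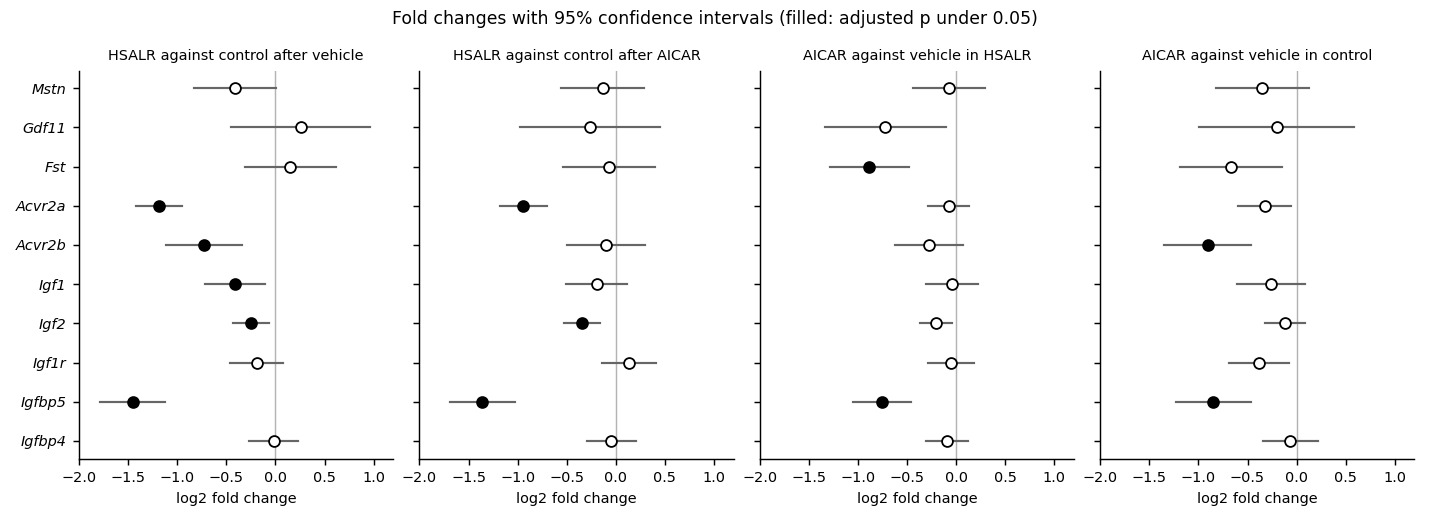
Log2 fold change of the 10 genes in 4 comparisons, with 95% confidence intervals; filled points passed an adjusted p of 0.05. All filled points lie below 0, and Igfbp5 is filled in each of the 4 panels.

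Per deposited gene length, the genes kept nearly the same order in all 4 groups. In vehicle-treated control muscle *Igfbp5* (199 ± 17.4 normalized RPKM) was followed by *Igfbp4* (35.0 ± 5.49), *Mstn* (29.4 ± 3.57), *Acvr2a* (11.1 ± 1.37), *Igf2* (5.09 ± 0.33), *Igf1* (4.59 ± 0.36), *Acvr2b* (4.49 ± 0.23), *Fst* (3.61 ± 0.06), *Gdf11* (2.20 ± 0.45) and *Igf1r* (1.89 ± 0.08; SD, n = 3 for each). In this order *Igfbp4* and *Mstn*, *Igf2* and *Igf1*, *Igf1* and *Acvr2b*, and *Gdf11* and *Igf1r* overlapped, and the other neighbours did not. In AICAR-treated HSALR muscle *Igfbp5* (43.1 ± 5.28) overlapped *Igfbp4* (32.4 ± 3.90; SD, n = 5 for each), which it did in no other group. The genes whose levels followed a member most closely over the 16 libraries, among 13000 genes compared, were *Dglucy* (Pearson r = 0.951) and *Spred3* (0.949) for *Igfbp5*, *Lgr4* (0.976) and *Dhdh* (0.970) for *Acvr2a*, and *Arap1* (0.965) and *Gas1* (0.953) for *Fst*. For *Mstn* the closest were *Tmco4* (0.820) and *Snap29* (0.813). These are descriptions over libraries that differ by group, with no test.

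Muscle RNA also holds RNA of other cells, and in bulk samples fewer cells of a type and less RNA per cell cannot be told apart. All 5 endothelial markers fell in HSALR muscle after vehicle, with a summed level of 247 to 274 normalized CPM in control and 163 to 213 in HSALR mice. Of 4 pericyte and smooth muscle markers 3 fell (445.9 to 483 against 327 to 376), and of 4 satellite cell markers 2 rose (12.1 to 18.7 against 18.4 to 25.0). Of 5 macrophage markers 2 rose (113 to 156 against 131 to 178). After AICAR 2 endothelial markers were lower in HSALR muscle (254 to 273 in control, 204 to 228 in HSALR mice), 3 pericyte and smooth muscle markers were lower (395 to 455.4 against 314 to 365) and 2 satellite cell markers were higher (9.99 to 14.1 against 15.1 to 19.6). In the same comparison 5 of 8 epidermis markers were lower in HSALR muscle (0.243 to 104 against 0.242 to 0.371), and of 7 fibre markers 2 were higher and 1 lower. After vehicle 2 fibre markers were higher and no epidermis marker passed the test. With AICAR 3 endothelial markers rose in HSALR muscle and none passed the test in control muscle, while 1 satellite cell marker fell in each genotype. Of 5 fibroblast markers 4 fell with AICAR in HSALR muscle (677 to 1000 after vehicle, 416 to 673 after AICAR), the comparison in which *Fst* fell. Of 8 epidermis markers all 8 fell there (0.612 to 187 after vehicle, 0.242 to 0.371 after AICAR). The part of these cells in the fall of *Igfbp5*, *Acvr2a*, *Acvr2b* and *Fst* was not tested.

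The rest of the pathway moved in both directions. Of 66 other genes of the activin and IGF branches, 61 were tested. In HSALR against control muscle 6 were higher and 11 lower after vehicle, and 4 were higher and 10 lower after AICAR. AICAR raised 8 and lowered 17 in HSALR muscle, and raised 7 and lowered 4 in control muscle. These shares (27.9%, 23.0%, 41.0% and 18.03%) stand beside the 26.9%, 21.8%, 26.6% and 13.2% of all genes given above. Without the 6 libraries with *Krt14* the counts after vehicle, with AICAR in HSALR and with AICAR in control muscle were 7, 9 and 6, where 5.8%, 5.77% and 4.47% of all 15584 genes then tested passed. Of the genes named below, *Wfikkn2*, *Tgfb3*, *Grb2*, *Ghr*, *H19* and *Igf2bp2* kept their call after vehicle without these libraries. *Tgfb1*, *Bmpr2*, *Igfbp3* and *Grb10* lost it at log2 fold changes of 0.64, -0.24, -0.38 and -0.81. With AICAR in HSALR muscle *Wfikkn2*, *H19* and *Igf2bp2* kept it. *Fstl3*, *Inhba*, *Bmpr2*, *Smad6*, *Ccn2* and *Stc2* lost it there at log2 fold changes of -0.86, -0.94, 0.49, -1.59, -0.85 and 2.12. In control muscle *Wfikkn2*, *Ccn2* and *Stc2* kept it, and *Smad3* and *Tgif1* lost it at 0.86 and 1.04. Both HSALR results rest on S451, the 1 vehicle-treated HSALR mouse left. In that fit *H19* and *Igf2bp2* were at 1.44 and 3.08 after vehicle (0.73 and 1.86 with all libraries). With AICAR in HSALR muscle they were at -1.65 and -2.90 (-0.92 and -1.70 with all libraries). On leaving out 1 mouse the value of *Igf2bp2* after vehicle went down to 1.29. With *Tbp* scaling *Wfikkn2*, *Bmpr2*, *Igfbp3* and *Ghr* lost the call after vehicle at -0.13, -0.15, -0.36 and -0.25, and *Ghr* (-0.31, adjusted p = 0.0731) and *Grb2* (0.34, adjusted p = 0.0509) lost it after AICAR. Single mice also ended calls after vehicle, namely S445 or S450 for *Wfikkn2*, *Bmpr2* and *Tgfb1*, S451 or S458 for *Tgfb1*, S450 for *Igfbp3*, and S446 or S450 for *H19*. S447 or S449 ended that of *Ghr* after AICAR. With AICAR in control muscle any of S445, S447, S449 and S450 ended the calls of *Smad3* and *Tgif1*, and S446 that of *Smad3*. Fitting only the groups compared ended the calls of *Wfikkn2*, *Igfbp3*, *H19* and *Igf2bp2* after vehicle, library size scaling that of *Smad3* in control muscle, and the epidermal covariate those of *Inhba* and *Ccn2* with AICAR in HSALR muscle. No pathway gene passed the test for a difference between the AICAR effects (14 at an unadjusted p under 0.05, 4 by DESeq2).

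On the activin side, the extracellular inhibitor *Wfikkn2*, which binds myostatin and GDF11, had a mean of 18.4 ± 0.50 normalized CPM in vehicle-treated control mice (SD, n = 3) and lay at 11.0 to 17.6 in vehicle-treated HSALR mice (log2 fold change -0.42, adjusted p = 0.0201). It rose with AICAR in HSALR muscle to 23.3 to 26.6 (log2 fold change 0.84, adjusted p = 6.79e-05) and in control muscle to 25.1 to 34.9 (0.69, adjusted p = 0.00473). *Fstl3*, a follistatin-like inhibitor, fell with AICAR in HSALR muscle (-0.73, adjusted p = 0.00733). *Inhba*, the activin beta A subunit, fell there too (-0.79, adjusted p = 0.0106), although it was counted at under 2 normalized CPM in all mice. *Tgfb1* and *Tgfb3*, ligands of the related TGF-beta receptors, rose in HSALR muscle after vehicle (0.54 for both, adjusted p = 0.0285 and 0.000159). *Bmpr2*, a type II receptor for BMP ligands, was lower in HSALR muscle after vehicle (-0.44, adjusted p = 0.0135) and rose with AICAR in HSALR muscle (0.65, adjusted p = 0.000438).

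Among the 12 intracellular SMAD genes, repressors and targets, 5 fell and 0 rose with AICAR in HSALR muscle, where 13% of all genes tested fell and 13.7% rose. With AICAR in control muscle 3 rose (*Smad3*, *Tgif1* and the corepressor *Ski*) and 1 (*Ccn2*) fell, against 8.4% and 4.77% of all genes. In HSALR against control muscle 0 were higher and 2 lower after vehicle, against 15.4% and 11.5% of all genes. After AICAR 0 were higher and 4 lower, against 12.2% and 9.64%. The inhibitory *Smad6* went from 4.66 to 8.06 normalized CPM after vehicle to 1.26 to 3.77 after AICAR (log2 fold change -1.65, adjusted p = 0.000713), and *Ccn2*, a matricellular target of TGF-beta, fell by 1.06 on the log2 scale (adjusted p = 0.00348). Without the 6 libraries with *Krt14* both lost the call (-1.59 and -0.85, adjusted p = 0.0889 and 0.112). *Ccn2* also fell with AICAR in control muscle (-1.42, adjusted p = 0.00594), where the transducer *Smad3* and the repressor *Tgif1* rose (0.73 and 1.10, adjusted p = 0.0382 and 0.0218).

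On the IGF side, the adaptor *Grb10*, which restrains insulin and IGF1 receptor signalling, was at 78.0 to 114 normalized CPM in vehicle-treated control and 32.0 to 46.4 in vehicle-treated HSALR mice (log2 fold change -1.22, SE 0.17, adjusted p = 8.14e-05). It was also lower in HSALR muscle after AICAR (-1.10, SE 0.17, adjusted p = 0.000304). The adaptor *Grb2* was higher in both (0.40 and 0.38, adjusted p = 4.97e-05 and 0.000123). *Ghr*, the growth hormone receptor upstream of *Igf1*, was lower in HSALR muscle after vehicle (-0.53, SE 0.07, adjusted p = 9.81e-05) and after AICAR (-0.26, SE 0.07, adjusted p = 0.0193). *Igfbp3*, the main carrier of IGFs in serum, was lower in HSALR muscle after vehicle (-0.63, adjusted p = 0.0172; without control mouse S450 -0.35, adjusted p = 0.156) and rose with AICAR in HSALR muscle (0.90, adjusted p = 0.000800), in the opposite direction to *Igfbp5*. This last value of *Igfbp3* is named after its values were seen and was not computed under the alternatives. *Stc2*, whose product inhibits the protease that cleaves IGFBP4, rose with AICAR from 1.93 to 2.88 normalized CPM to 6.27 to 23.6 in HSALR mice (2.30, SE 0.32, adjusted p = 0.000153). In control mice it rose from 3.56 to 6.33 to 23.3 to 38.8 (2.64, SE 0.41, adjusted p = 0.000983).

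At the *Igf2* locus, the noncoding RNA *H19* lies 72621 bases from *Igf2* on chromosome 7 and is expressed from the opposite parental allele. *H19* was at 932, 1062 and 1243 normalized CPM in control and at 1308 to 2971 in HSALR mice after vehicle, without overlap (log2 fold change 0.73, SE 0.22, adjusted p = 0.0199). The value was 0.47 without S451 (adjusted p = 0.0163), and the call was lost without S446 (0.64, adjusted p = 0.0846) or S450 (0.72, adjusted p = 0.0610) and with only the groups compared (adjusted p = 0.0727). It fell with AICAR in HSALR muscle to 862 to 1024 (-0.92, SE 0.18, adjusted p = 0.00200). *Igf2bp2*, an *Igf2* mRNA binding protein, was at 1.199 to 1.35 in vehicle-treated control and 1.77 to 10.5 in vehicle-treated HSALR mice (1.86, SE 0.48, adjusted p = 0.00989), and fell with AICAR to 1.04 to 1.81 (-1.70, SE 0.40, adjusted p = 0.00538). Its call after vehicle was lost with limma (1.49, adjusted p = 0.0564) and with only the groups compared (adjusted p = 0.0531).

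**Figure D4:**
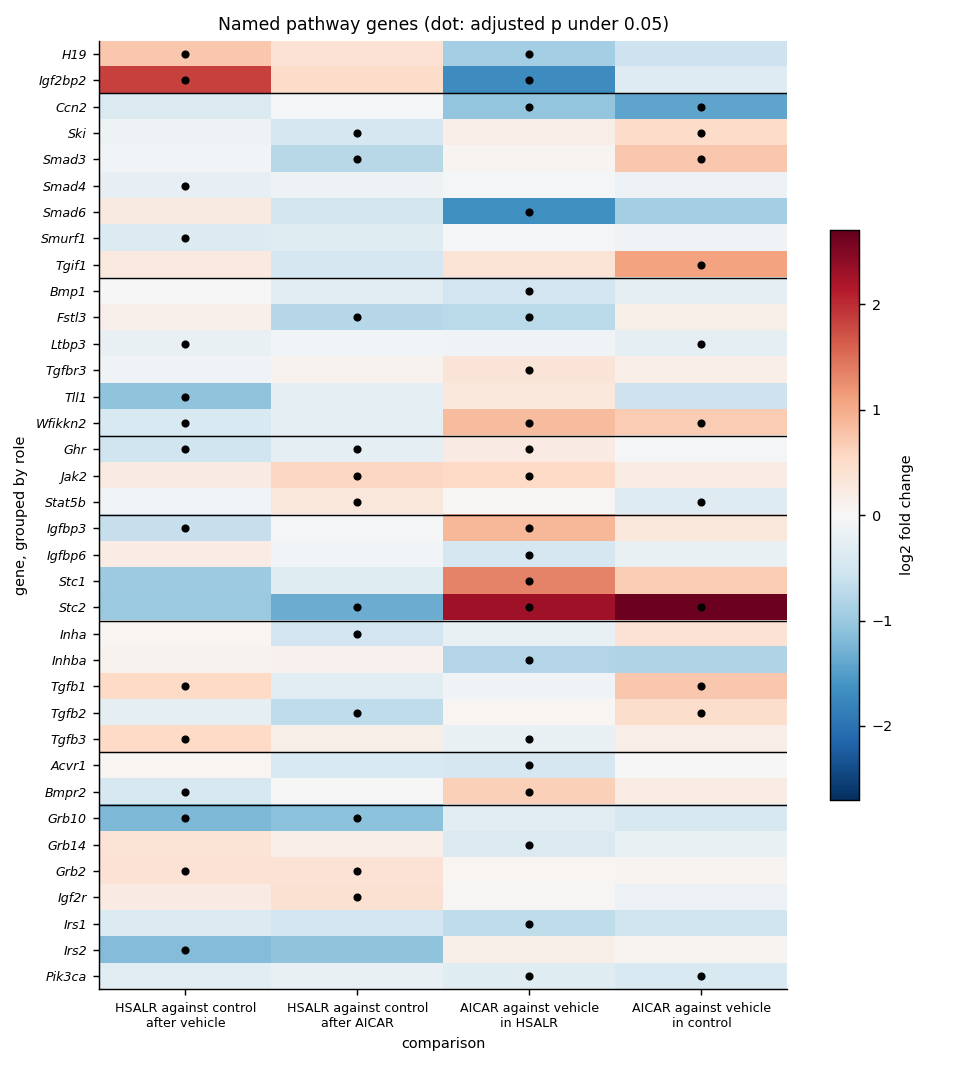
Log2 fold change (colour) of the 36 named pathway genes in 4 comparisons, grouped by role, with a dot where adjusted p was under 0.05. Grb10 is lower in both HSALR comparisons, Stc2 is higher with AICAR in both genotypes, and H19 and Igf2bp2 go up in the first column and down in the third.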

How the data were processed

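Read counts per gene of 16 *gastrocnemius* samples were used as deposited. The authors aligned stranded poly(A) reads with STAR 2.5.2a to mm10 and counted reads starting in any exon of RefSeq genes with QuasR, assigning reads with several equal hits to 1 location. Whether counting used strand is not given in the sources used here, so overlapping or antisense genes cannot be told apart. The deposited table also holds a gene length, used for RPKM.

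The 10 genes and the gene lists were chosen with earlier results of these data known. Entrez IDs were matched to symbols (24374 of 24454). Counts were tested with edgeR 4.0.16 (R 4.3.3; TMM scaling, filterByExpr, glmQLFit and glmQLFTest, 1 mean per group, all 16 libraries), with Benjamini-Hochberg adjustment over the 15487 genes that passed the filter and a threshold of 0.05. Normalized CPM are counts relative to TMM-scaled library totals (factors 0.906 to 1.06). Standard errors are the absolute log2 fold change divided by the root of the test's F. Ratios of 2 genes were tested by exact two-sided permutation. Named pathway genes were, per list and comparison, the 2 highest and 2 lowest past the threshold with a mean count of at least 50, and *H19*. Mouse IDs were not shared between groups, so no pairing exists. Each p-value sets a difference between groups against the spread between mice, which edgeR estimated jointly over the groups.

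The test was run on simulated counts in which 200 genes changed 2-fold and all others kept the same mean. In the real data 13.2% to 26.9% of genes passed in the comparisons of groups, and *Krt14* was uneven. Recovery and false calls may therefore differ there. In the simulation the test recovered 151, 148, 156 and 135 in the genotype comparisons after vehicle and AICAR and the AICAR comparisons in HSALR and control muscle. It recovered 117 for the difference of AICAR effects, with 5 to 12 false calls in each comparison. A minimum of recovered genes that was set first was missed by that last comparison and was replaced by a check of signs and false calls. Alternatives were DESeq2 1.42.0, limma 3.58.1 with voom, other scalings and filters, an epidermal covariate, and omitted libraries.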

Additional observations from a re-analysis of the deposited data

Results flagged for a closer look

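Each gene and each ratio was tested in each HSALR group of 5 mice. Of these 28 tests, 2 found a mouse far from the others, where chance gives about 1.4. The ratios reuse counts of the same genes, so the tests are not independent. *Gdf11* was at 9.28 normalized CPM in vehicle-treated HSALR mouse S451, against 3.30 to 3.86 in the other 4. *Fst* was at 9.77 normalized CPM in AICAR-treated HSALR mouse S460, against 4.89 to 6.07 in the other 4. The groups of 3 control mice were not tested.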

How the results depend on the processing

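The falls of *Igfbp5* in 4 comparisons and of *Acvr2a* in both genotype comparisons kept direction and call under all 26 alternatives run for each. The number of members past the threshold after vehicle (5 in HSALR against control muscle) was 3 with library size scaling, without the filter on low counts and with the epidermal covariate, and 2 with *Tbp* scaling and without the 6 libraries with *Krt14*, which leaves 1 vehicle-treated HSALR mouse, assumed to vary like the other groups (5.8% of all genes passed in that fit). Leaving out single mice gave 3 to 5 (3 without S446, S450, S452, S458 or S459). With AICAR in HSALR muscle the count of 2 became 4, with *Gdf11* and *Igf2* added, with DESeq2, library size scaling, *Tbp* scaling and the covariate, and in control muscle it became 1 without the *Krt14* libraries. Pathway counts without those libraries were 7 after vehicle (reported as 17), 9 with AICAR in HSALR (reported as 25) and 6 with AICAR in control muscle (reported as 11), and *Tbp* scaling gave 8 after AICAR (reported as 14). Single mice gave 10 to 19 after vehicle (10 without S450), 11 to 22 after AICAR (22 without S460) and 5 to 13 with AICAR in control muscle (5 without S445 or S450, 6 without S449). For the difference of AICAR effects 0 pathway genes became 4 with DESeq2, 1 with library size scaling and 3 with *Tbp* scaling, and 0 to 2 without single mice (1 without S446 or S460, 2 without S449). *Tbp* scaling moved the median of all genes by 0.27, -0.11 and 0.20 on the log2 scale in HSALR against control after vehicle and with AICAR in HSALR and control muscle, and by -0.31 for the difference, so its signs are relative to these shifts. It called 5053 genes higher and 242 lower after vehicle (2385 and 1784 with TMM), 697 and 2071 with AICAR in HSALR (2114 and 2007) and 2028 and 122 in control muscle (1301 and 738). Library size scaling called 1327 and 2962 with AICAR in HSALR muscle. The cause of these changes was not tested.

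Of the log2 values whose sign reversed, those of *Igf2* and *Smad4* after vehicle had passed the test as reported. In HSALR against control muscle after vehicle, *Tbp* scaling gave 0.021 for *Igf2*, 0.087 for *Igf1r*, 0.24 for *Igfbp4* and 0.043 for *Smad4*. *Igf2* was 0.00030 without the *Krt14* libraries, and *Igfbp4* was 0.0055 with library size scaling and 0.038 with the covariate. With AICAR in HSALR muscle the covariate gave 0.031 for *Mstn* and 0.018 for *Igf1*, and *Mstn* was 0.13 without the *Krt14* libraries. With AICAR in control muscle *Igf2* was 0.091 and *Igfbp4* 0.13 under *Tbp* scaling, and *Igf2* was 0.0087 without the *Krt14* libraries. For the difference of AICAR effects *Tbp* scaling gave -0.039 for *Mstn*, -0.083 for *Acvr2a*, -0.098 for *Igf1* and -0.22 for *Igfbp5*, and omitting the *Krt14* libraries gave -0.056 for *Acvr2a* and 0.021 for *Igfbp4*.

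Leaving out single mice turned further uncalled values. After vehicle *Gdf11* ranged from -0.15 (without S451) to 0.36 and *Igfbp4* from -0.11 to 0.11. After AICAR *Mstn* ranged from -0.25 to 0.0018, *Gdf11* from -0.42 to 0.020, *Fst* from -0.30 to 0.18, *Acvr2b* from -0.23 to 0.0054 and *Igfbp4* from -0.10 to 0.039. With AICAR in HSALR muscle *Mstn* ranged from -0.18 to 0.038, *Igf1* from -0.16 to 0.036 and *Igf1r* from -0.13 to 0.0061, and in control muscle *Igfbp4* from -0.16 to 0.064. The difference of AICAR effects ranged from -0.45 to 0.033 for *Fst*, -0.16 to 0.0063 for *Igf2*, -0.0041 to 0.19 for *Igfbp5* and -0.16 to 0.065 for *Igfbp4*. The log2 ratio of *Mstn* to *Fst* ranged from -0.32 to 0.32 after AICAR and from -0.039 to 0.61 with AICAR in control muscle. None of the 16 ratio tests passed the threshold under any alternative.

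No paired analysis was possible because the groups share no mouse IDs. With 3 control mice per group, the self-check recovered 117 of 200 genes changed 2-fold for the difference of AICAR effects.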
